A study of Drosophila melanogaster with 12 samples.

Results

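The 10 genes described here encode proteins of the chorion, the outer eggshell of *Drosophila melanogaster*, and were taken as the entries of the RNA table whose gene symbol is *Cp7Fa*, *Cp7Fb*, *Cp7Fc*, *Cp15*, *Cp16*, *Cp18*, *Cp19*, *Cp36*, *Cp38* or *Femcoat*. All 10 were found, among 14303 genes and 18039 named genes and repeats in all. The study profiled ovaries of 4-day-old females with a *D1* mutant genotype (D1 Kyoto over D1 Bsc666, a mutant allele over a chromosome that lacks the *D1* region) and of control females (D1 Kyoto over the balancer TM6C, so that the control also carries a copy of the mutant allele). All of these females were also mutant for *chk2*, a DNA damage checkpoint kinase. D1 is a protein that binds satellite DNA. There were 3 RNA libraries of each genotype, made from pooled ovaries, and 3 small RNA libraries of each genotype that were not used here.

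The value used for each gene is the authors' mean of the normalized read counts over all 6 RNA libraries, D1 mutant and control pooled, in which the counts of each library were first divided by its size factor. It gives a single level per gene, with no spread between libraries. The results below therefore describe the levels of the chorion genes in these ovaries and their order, and make no comparison of D1 mutant with control ovaries. Long transcripts collect more reads than short ones, so genes are compared on the mean per kb, which is the mean divided by the length of the longest annotated transcript in kb. The full length was used, with no correction for the length of the sequenced fragments. Values per kb of short transcripts depend most on this choice, and its effect on ranks and ratios was not tested.

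The chorion is laid down around the egg in the last stages of oogenesis by the somatic follicle cells that surround the oocyte. The major chorion genes lie in a cluster on the X chromosome and a cluster on the left arm of chromosome 3 (3L). Follicle cells copy both clusters many times by repeated firing of local replication origins before the genes are transcribed at high level. *Cp36* and *Cp38*, on the X chromosome, are known as genes of early choriogenesis, and *Cp15*, on 3L, as a gene of late choriogenesis. The hexamer TCACGT is known from the promoters of chorion genes of flies and moths.

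The gene annotation placed 5 of the 10 genes in the X cluster, in the order *Cp7Fa*, *Cp7Fb*, *Cp7Fc*, *Cp36* and *Cp38*, over 12.4 kb (chrX:8470888-8483311, BDGP6). It placed 4 in the 3L cluster, in the order *Cp18*, *Cp15*, *Cp19* and *Cp16*, over 5.81 kb (chr3L:8726791-8732599). All 9 genes of the clusters lie on the plus strand, separated by gaps of 749 to 1313 bases on X and 798 to 1339 bases on 3L. *Femcoat*, which encodes an eggshell protein, lies on the minus strand of X (chrX:4241887-4242826), outside both clusters.

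The 100 bases before the annotated start of a gene are shown for the 4 genes of the 3L cluster, because each of them holds the hexamer TCACGT upstream of a TATAAA. Capitals mark these matches, and each sequence is read 5′ to 3′ on the strand of the gene and ends at the base before the start. The windows are chr3L:8726691-8726790 for *Cp18*, chr3L:8728381-8728480 for *Cp15*, chr3L:8729765-8729864 for *Cp19* and chr3L:8731844-8731943 for *Cp16*, on the plus strand.
Cp18: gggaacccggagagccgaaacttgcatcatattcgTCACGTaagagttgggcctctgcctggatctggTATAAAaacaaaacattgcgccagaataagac
Cp15: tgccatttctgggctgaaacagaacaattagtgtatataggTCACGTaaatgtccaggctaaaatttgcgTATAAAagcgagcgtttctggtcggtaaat
Cp19: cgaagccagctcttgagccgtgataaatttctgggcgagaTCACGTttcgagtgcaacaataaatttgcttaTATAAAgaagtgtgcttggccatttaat
Cp16: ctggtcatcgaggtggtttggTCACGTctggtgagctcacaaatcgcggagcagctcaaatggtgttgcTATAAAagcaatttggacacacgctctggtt

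For the X cluster, *Cp36* is shown because it holds both matches. Also shown are *Cp38* and *Cp7Fc*, which hold the hexamer but not the exact letters TATAAA, and *Cp7Fb*, which holds TATAAA but not the hexamer. The windows are chrX:8479219-8479318 for *Cp36*, chrX:8481737-8481836 for *Cp38*, chrX:8477017-8477116 for *Cp7Fc* and chrX:8473737-8473836 for *Cp7Fb*, on the plus strand.
Cp36: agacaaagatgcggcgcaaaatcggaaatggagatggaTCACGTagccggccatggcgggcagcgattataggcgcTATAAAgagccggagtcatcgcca
Cp38: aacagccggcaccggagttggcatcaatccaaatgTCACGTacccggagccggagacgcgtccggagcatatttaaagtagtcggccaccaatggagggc
Cp7Fc: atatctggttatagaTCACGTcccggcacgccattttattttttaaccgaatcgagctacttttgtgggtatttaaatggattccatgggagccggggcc
Cp7Fb: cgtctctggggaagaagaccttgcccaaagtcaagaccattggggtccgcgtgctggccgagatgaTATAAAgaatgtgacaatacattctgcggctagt

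TCACGT was searched on both strands and TATAAA on the strand of the gene. The hexamer was found within 250 bases before the start in 7 of the 10 chorion genes, against 4.99% of the 12144 promoters of protein-coding genes in the table, which include the chorion genes. All 7 matches lie within the last 100 bases, a window in which 1.90% of these promoters hold the hexamer. The 7 genes are *Cp18*, *Cp15*, *Cp19* and *Cp16*, which are all of the 3L cluster, and *Cp36*, *Cp38* and *Cp7Fc* of the X cluster. Each holds a single match, on the strand of the gene. The TCACGT letters are not in the windows of *Cp7Fa*, *Cp7Fb* and *Femcoat*. The hexamer was chosen because it is known from chorion promoters. Its high count in these genes is therefore not an independent test of a link to them.

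The hexamer begins between 59 bases before the start, in *Cp15*, and 85 bases before it, in *Cp7Fc*. In *Cp19*, *Cp36*, *Cp18* and *Cp38* it begins 60, 62, 65 and 65 bases before the start, and in *Cp16* 79 bases before it. The matches of 5 genes therefore begin within a stretch of a few bases, and *Cp16* and *Cp7Fc* stand farther upstream.

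TATAAA was found in 6 of the 10 chorion genes, against 28.8% of all promoters within 250 bases and 13.3% within 100 bases. The 6 matches begin between 24 bases before the start, in *Cp36*, and 34 bases before it, in *Cp7Fb*. Both motifs stand in the last 100 bases of 5 chorion genes, *Cp18*, *Cp15*, *Cp19*, *Cp16* and *Cp36*, against 0.296% of all promoters. Between the hexamer and TATAAA lie 23 bases in *Cp15*, 26 in *Cp19*, 27 in *Cp18*, 32 in *Cp36* and 42 in *Cp16*. A match is a stretch of letters before an annotated start, not a measured binding site. Only the exact letters were searched, so variants of either motif were not counted.

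**Figure D1:**
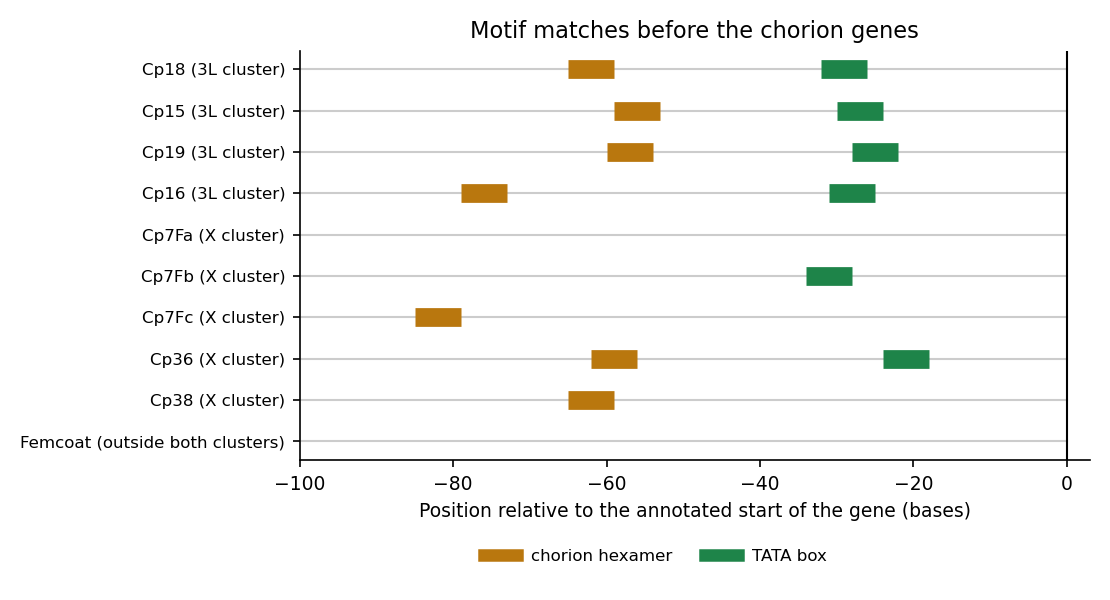
Position of the hexamer TCACGT (brown) and of TATAAA (green) in the 100 bases before the annotated start of each chorion gene, in bases from the start at 0. The hexamer stands before 7 of the 10 genes, including all 4 of the 3L cluster.

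*Cp15*, the gene of late choriogenesis, had the highest level of the 10 chorion genes. Its mean normalized count over the 6 libraries was 217259, which placed it at rank 8 of 14303 genes. Per kb its mean was 421862, at rank 3 of the 14241 genes with an annotated length, after only the ribosomal protein gene *RpL41* and the small nuclear RNA 7SK. It was the highest per kb of all genes of its chromosome arm. On the mean itself, the genes just above *Cp15* were *Hsp83*, a heat shock protein gene, and *COX3*, a mitochondrial gene, and those just below were the ribosomal protein genes *RpS23* and *RpL3*. *RpL41* and 7SK were named after their values were seen, as was *Pxt* below.

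The 2 major genes of the X cluster followed. *Cp36* had a mean of 141711 (rank 23) and *Cp38* a mean of 132380 (rank 28). Per kb, *Cp36* was at 126981 and *Cp38* at 105989, so that *Cp36* was 1.20 times *Cp38*. These neighbours, both known as genes of early choriogenesis, were thus at similar levels. *Cp15* was 3.32 times *Cp36* and 3.98 times *Cp38* per kb. *Cp36* and *Cp38* are early genes and *Cp15* a late gene, and the stages present in the ovaries were not counted. More cells at a stage and more RNA per cell therefore cannot be told apart in these ratios or in those between the clusters.

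The other 3 genes of the 3L cluster lay close to each other. *Cp18* had a mean of 60394, *Cp16* of 57478 and *Cp19* of 55315, at ranks 111, 116 and 122. These genes have shorter transcripts than *Cp36* and *Cp38*, and per kb they lay nearer to them, with *Cp16* above *Cp38* and *Cp18* and *Cp19* below it. The mean per kb was 110111 for *Cp16*, 93057 for *Cp18* and 84969 for *Cp19*, against 105989 for *Cp38*. From *Cp36* down to *Cp19*, each gene was between 1.04 and 1.15 times the next in the order *Cp36*, *Cp16*, *Cp38*, *Cp18* and *Cp19*. *Cp38* stood above *Cp16* when the coding length was used instead, with 144205 against 138836 per kb of coding sequence. Without a spread between libraries, the order within these 5 genes is not established.

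A step of 7.29 times separated *Cp19* from *Femcoat*, the next gene per kb. *Femcoat* had a mean of 9707 and a mean per kb of 11653. *Cp7Fa*, the first gene of the X cluster, had a mean of 12475 and a mean per kb of 10545. *Cp7Fb* had a mean of 11996, close to that of *Cp7Fa*, but a transcript of 2093 bases against 1183 bases, and its mean per kb was 5732. *Cp7Fc*, which lies between *Cp7Fb* and *Cp36*, was the lowest of the 10 on both scales, with a mean of 2585 and a mean per kb of 2283. The *Cp7F* genes encode minor chorion proteins. The order of the lower 4 genes depended on the scale, since *Femcoat* was above *Cp7Fa* and *Cp7Fb* per kb and below both on the mean.

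**Figure D2:**
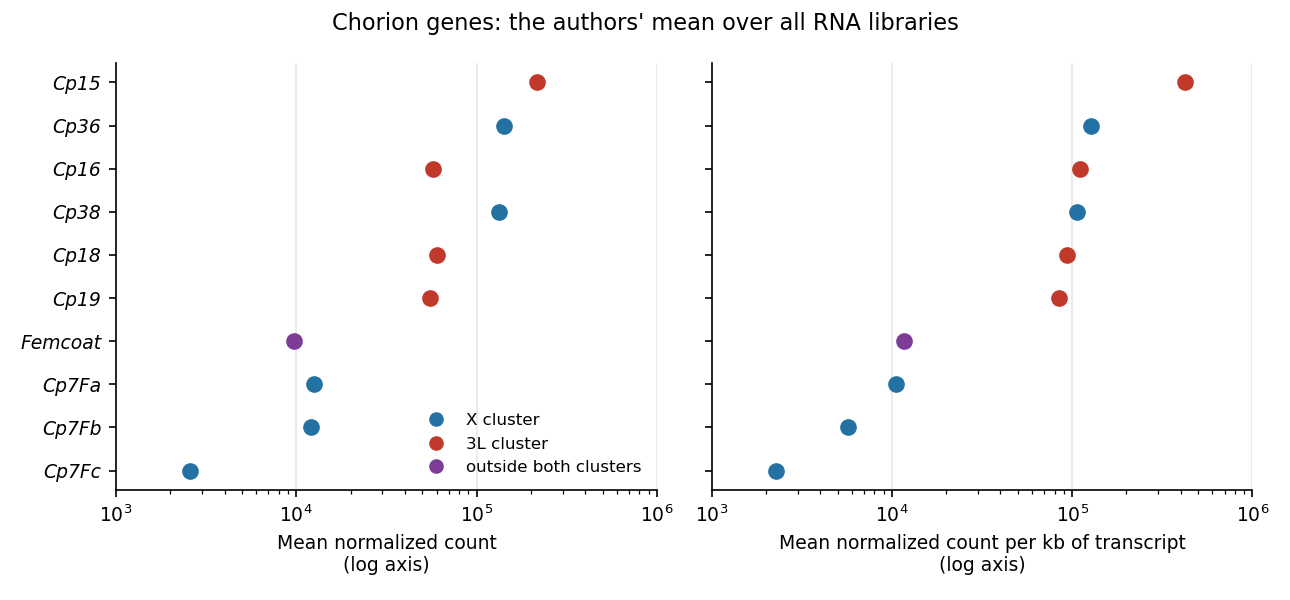
Level of each chorion gene as the authors' mean normalized count over all 6 RNA libraries (left) and as that mean per kb of the longest transcript (right), on log axes, 1 point a gene, coloured by cluster. *Cp15* is highest on both scales and *Cp7Fc* lowest, and 6 genes stand apart from the lower 4.

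The 10 genes thus spanned 84.1 times on the mean and 184.8 times per kb between *Cp15* and *Cp7Fc*. The upper 6 held 94.8% of the summed means of the chorion genes, and *Cp15* alone 31.0%. On X, *Cp36* ranked 6 and *Cp38* ranked 8 of 2317 genes per kb, while *Femcoat* ranked 54, *Cp7Fa* 58, *Cp7Fb* 99 and *Cp7Fc* 344. On 3L, *Cp16*, *Cp18* and *Cp19* ranked 7, 12 and 13 of 2751 genes per kb. Even *Cp7Fc* was 10.1 times the median of all genes per kb, which was 226.9.

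**Figure D3:**
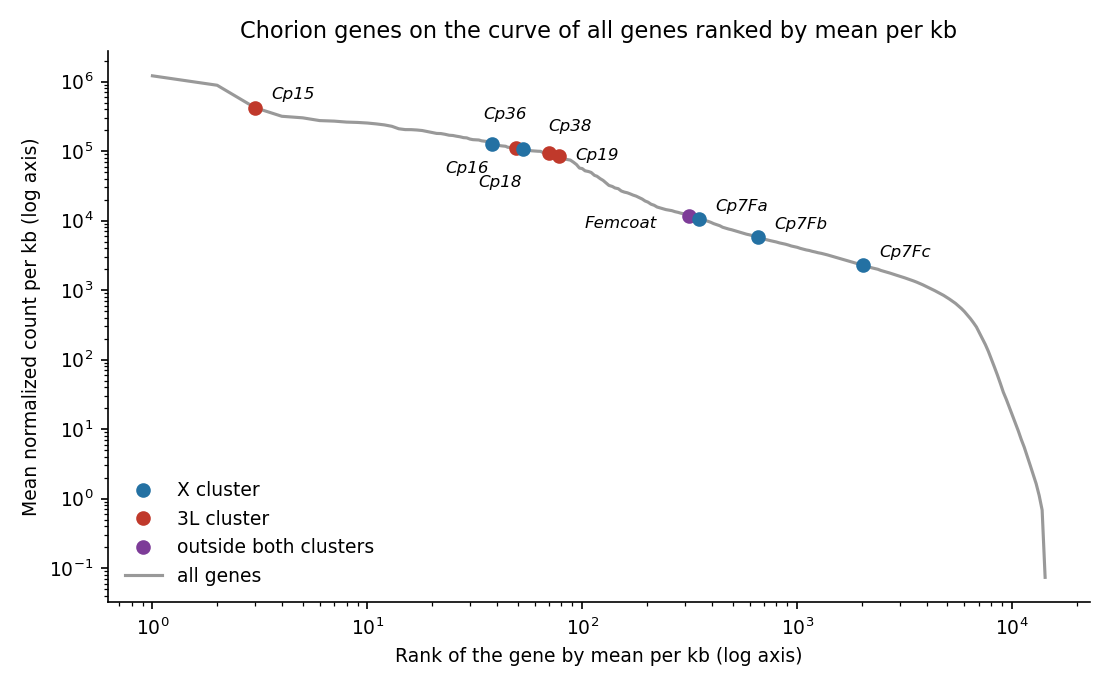
Mean per kb of all genes against their rank (grey line, both axes log), with the 10 chorion genes as points coloured by cluster. *Cp15* sits at rank 3, 5 genes between ranks 38 and 78, and *Femcoat* and the 3 *Cp7F* genes between ranks 313 and 2016.

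Together the 10 chorion genes held 1.54% of the summed means of all genes, a sum of 701300 normalized counts. The X cluster held 42.9% of the chorion sum with 5 genes, and the 3L cluster 55.7% with 4 genes. The summed mean of the X cluster was 0.771 times that of the 3L cluster, and per kb 0.354 times. Within the X cluster, *Cp36* was 55.6 times *Cp7Fc* per kb, and within the 3L cluster, where levels were more even, *Cp15* was 4.96 times *Cp19*. The median of the members per kb was 10545 in the X cluster and 101584 in the 3L cluster.

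The level changed along the X cluster with a step between *Cp7Fc* and *Cp36*, neighbours on the same strand. Per kb, *Cp7Fa*, *Cp7Fb* and *Cp7Fc* were at 10545, 5732 and 2283 in their order on the chromosome, and the next genes, *Cp36* and *Cp38*, were at 126981 and 105989. On 3L, *Cp15*, at 421862 per kb, lay between *Cp18* at 93057 and *Cp19* at 84969. *Cp16*, the last gene of the cluster, was at 110111 per kb.

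With the exception of *Cp7Fc*, the chorion genes of both clusters were above every gene around them. Of the 10 genes with a midpoint within 20 kb of an end of the X cluster, the highest per kb was *otu*, a germline gene needed for oogenesis, at 4230, and their median was 521.6. *Cp36*, *Cp38*, *Cp7Fa* and *Cp7Fb* were above *otu*, and *Cp7Fc* was below it. *Cp7Fc* was also just below *Sptr*, which encodes sepiapterin reductase, and *CG15347*, at 2337 and 2287 per kb. *Es2* was at 1861, *lncRNA:CR43834* at 605.9, *CG33181* at 437.4 and *CG12116* at 60.2 per kb, while *CG32713* was at 13.8 and *org-1*, a T-box transcription factor gene, at 1.63 per kb.

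*CG33223* spans the whole X cluster on the opposite strand, with a mean per kb of 186.5. Its longest transcript shares 0 exonic bases with the longest transcript of any of the 5 chorion genes. Whether the counting used strand is not given in the sources used here, so reads of unspliced *CG33223* RNA cannot be told apart from reads of the chorion genes. No pair of the 10 chorion transcripts shares a run of more than 18 identical bases.

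Around the 3L cluster, all 4 chorion genes were above each of the 7 neighbours. The highest neighbour was *SrpRbeta*, a signal recognition particle receptor subunit gene, at 4103 per kb, and the median of the 7 was 315.1. *CG6511*, which ends 0.683 kb before *Cp18*, was at 315.1 per kb. *Prm*, the paramyosin gene of muscle, lies on the opposite strand with its 3′ end 0.259 kb after *Cp16* and was at 148.2 per kb. *CG32022* and *CG43965* were at 988.4 and 824.2 per kb, and *CG13306* and *lncRNA:CR44527* at 14.3 and 2.52 per kb.

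**Figure D4:**
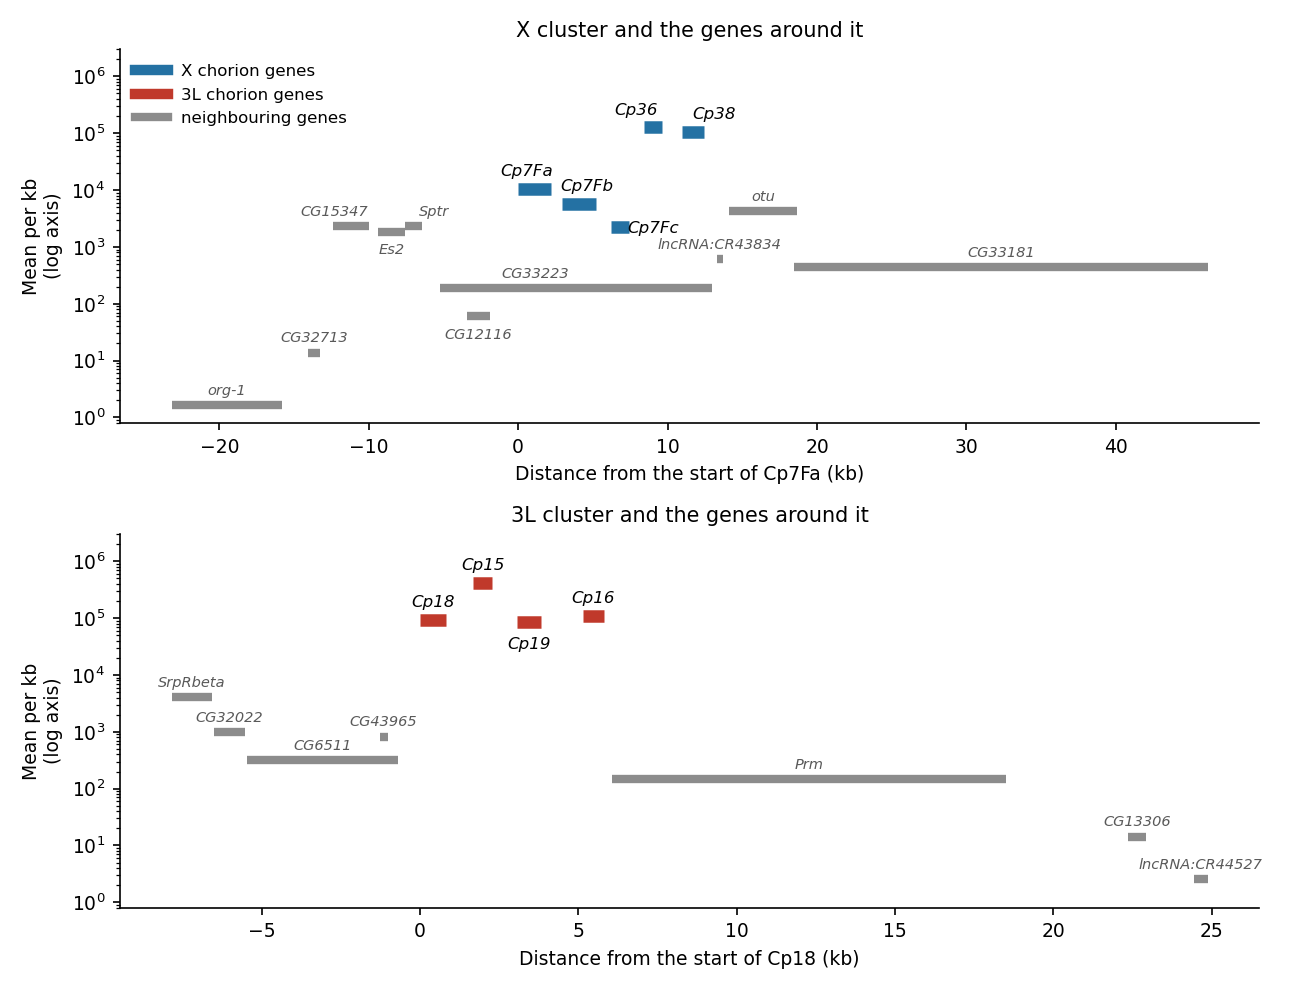
Level of each gene per kb (log axis) against its position in kb from the start of the first chorion gene, for the X cluster (top) and the 3L cluster (bottom), with chorion genes in colour, neighbouring genes in grey and the length of a bar equal to the length of the gene. The 3L chorion genes are at 84969 per kb or above, and the highest neighbour of either cluster is at 4230 per kb.

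The exon structure of the 10 chorion genes is given here, and whether it differs from that of other genes was not tested. In 9 of them the longest transcript has 2 exons, and in *Cp7Fa* it has 4. In 8 genes the first exon holds under 10% of the coding bases, between 2.89% in *Cp19* and 8.13% in *Femcoat*. The exceptions are *Cp7Fb*, with 21.9%, and *Cp16*, with 80.0%. The first intron is between 71 bases long, in *Cp15*, and 406 bases long, in *Cp7Fa*. The genes of the X cluster have transcripts of 1116 to 2093 bases, and those of the 3L cluster transcripts of 515 to 651 bases.

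The chorion genes were set beside other lists of genes of the eggshell, the yolk and the follicle cells, on the mean per kb. The median of the 10 chorion genes was 89013 per kb. The 3 yolk protein genes, which follicle cells and fat body express, came nearest, with a median of 44191 per kb. *Yp2* was at 100213, between *Cp38* and *Cp18*, and *Yp3*, the lowest, at 34886 per kb. The 7 vitelline membrane genes, which encode the inner eggshell layer and are transcribed before the chorion genes, had a median of 3817 per kb. Of these, *Vm32E* was highest at 38807 per kb and *psd* lowest at 1237 per kb. None of the 7 reached the chorion median, and 5 were above *Cp7Fc*.

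Of the 12 other eggshell genes listed, 11 were found in the table used here, and *dec-1* was not found under that symbol. Among the 11, the median was 2393 per kb and 6 were above *Cp7Fc*. *yellow-g2*, of the yellow family, was highest at 16081 per kb, above *Femcoat* and the *Cp7F* genes. *Pxt*, a peroxidase gene linked to eggshell formation, was at 11442 per kb, next to *Femcoat* at 11653. *Pxd*, another peroxidase gene, was lowest at 4.15 per kb.

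The 22 genes listed for chorion gene amplification and its control had a median of 1304 per kb. *Dp*, the partner of the E2F factors, was highest at 4924 per kb, below *Cp7Fb*, and *SuUR*, which slows replication forks, was lowest at 93.5 per kb. Of the 22, 3 were above *Cp7Fc*. Among the 7 genes of transcription factors linked to chorion transcription, the median was 239.3 per kb. The nuclear receptor gene *usp*, whose protein binds the *Cp15* promoter, was highest at 3352 per kb, and *slbo* lowest at 15.7 per kb. Transcription factor genes are expressed in many ovarian cells or few, and in bulk ovaries fewer cells of a type and less RNA per cell cannot be told apart.

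**Figure D5:**
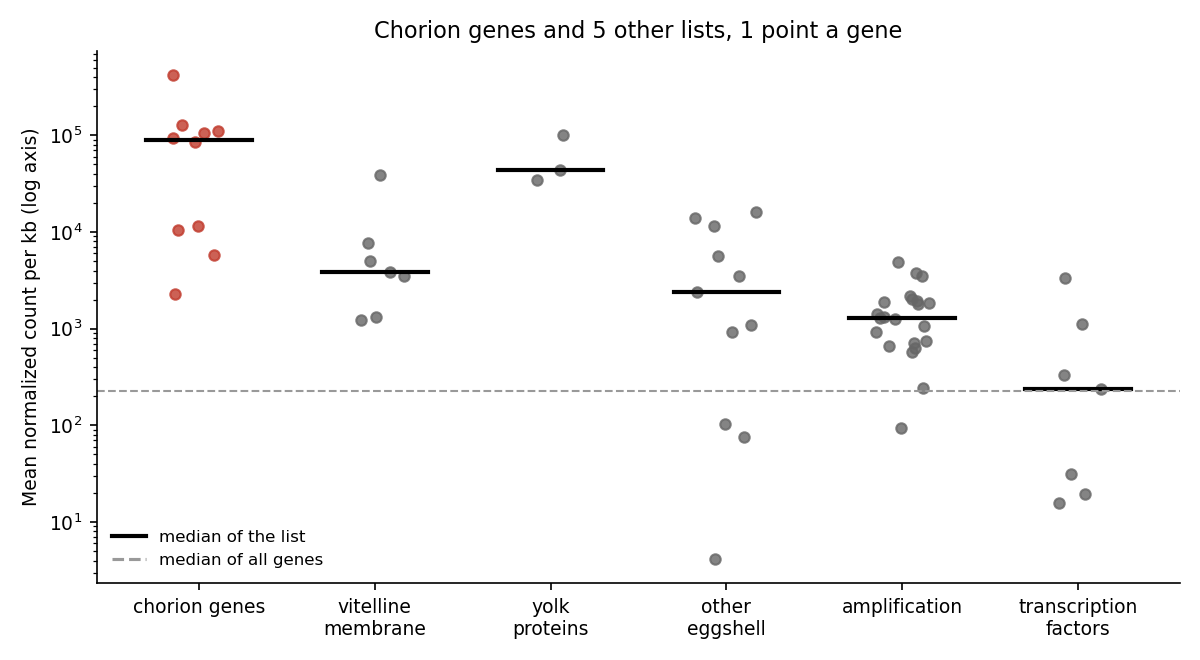
Mean per kb (log axis) of the 10 chorion genes (red) and of the genes of 5 other lists (grey), 1 point a gene spread sideways at random, with the median of each list as a bar and the median of all genes as a dashed line. The chorion median, 89013 per kb, is above the medians of the 5 other lists.

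The tissue named by the sample labels was checked against marker genes. The series' design text names testes, whereas the sample labels and the study's methods for the RNA libraries name ovaries. The chorion genes, which mark late follicle cells of the ovary, had a summed mean of 701300 normalized counts, against 689.4 for the 7 testis markers in the table, whose means were 2.53 (*dj*) to 590.5 (*mia*). The 6 germline markers had means of 834.8 (*grk*) to 36523 (*nos*). The labels give the cell type as germline cell, and 6 of the 10 chorion genes, which somatic follicle cells express, were among the top 200 genes of the same libraries on the mean. The 6 follicle cell markers had means of 43.6 (*slbo*) to 71192 (*Yp1*) and a summed mean of 97343. Most of that sum came from *Yp1* and *Vm32E*, at 71192 and 19365, while *tj* and *br* were at 645.5 and 306.9. Per kb, *tj*, *br* and *slbo* were at 184.9, 31.2 and 15.7, below the testis marker *mia* at 251.5. The 4 muscle markers had a summed mean of 7351, and the fat body, cuticle and hemocyte markers of 176.9, 63.4 and 202.6 normalized counts. *D1* itself had a mean of 6038 and *lok*, the gene of Chk2, a mean of 272.0 over both genotypes together.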

How the data were processed

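RNA from ovaries was depleted of ribosomal RNA and sequenced in pairs. Per the labels and the study's methods, the authors used BBTools to clean reads, STAR to map them to BDGP6, TEtranscripts to count genes and repeats, and DESeq2 v 1.37.4. The deposited table gives, for each feature, a signal that is the mean of the authors' normalized counts over all 6 RNA libraries. Its other columns hold the authors' comparison of D1 mutant with control ovaries (fold changes, p-values and up and down marks), and these were not used. Values of single libraries are not given, so no interval or test is given, and the planned count test was left out. The depth of each library is also unknown.

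Of 18049 entries, 9 without a name and 1 repeated identifier were dropped. Lengths and positions came from Ensembl release 115, which matched 14241 of 14303 genes. Sequences were read from the RefSeq genome of the same assembly. The first coding triplet was ATG in 99.7% of 12127 genes and in all 10 chorion genes. Shares, ranks and ratios were computed with pandas 2.3.3, and the motif search was tested on simulated data. Named genes were the 10 chorion genes, genes within 20 kb of the clusters, the highest and lowest gene of each list per kb (of marker lists, by the mean), the 2 ranked above and the 2 below *Cp15*, *D1* and *lok*. The follicle cell markers *tj*, *br* and, as a marker, *Vm32E* were named outside this rule. The members and lists were chosen with earlier results of these data known.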

Additional observations from a re-analysis of the deposited data

How the results depend on the processing

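No paired analysis was possible because the values are means over all 6 libraries, and for the same reason no library could be left out and no count test, normalization or filter on counts per library was run. With lengths from the union of exons the chorion median per kb was the same, and with coding length it was 111812. The share of the summed means was 1.52% over all named features, 1.59% without ribosomal, mitochondrial, small nuclear and small nucleolar RNA genes and 1.06% without *Cp15*. The median rank was 119 on the mean, also among genes with a mean of at least 10, and 74 per kb. The ratio of the X to the 3L cluster was 0.212 on the medians of their genes. The hexamer count was 7 in either window.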

Other observations

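*CG43134*, a gene chosen after its values were seen, lies 4.49 kb from *Femcoat* on X (chrX:4247313-4247785, plus strand). Its mean was 60683 normalized counts and its mean per kb 149099, against 9707 and 11653 for *Femcoat*, which makes it 12.8 times *Femcoat* per kb. It ranked 30 per kb, above *Cp36* at rank 38. The genes next to it were much lower per kb. *Muc4B*, a mucin gene between *Femcoat* and *CG43134*, was at 103.5 per kb. *CG43135* was at 218.0 per kb, close to the median of all genes, 226.9 per kb.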
